A study of Mus musculus with 4 samples.

Results

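The genes described here are 10 genes by which macrophages of the mouse uterus are recognised, out of 28545 genes in each gene table: Csf1r, Adgre1, Cd68, Aif1, Fcgr1, Trem2, Cd14, Mrc1, Cd163 and Folr2. They were chosen by name, and each matched a single entry by its gene symbol. Polyadenylated RNA of mouse endometrium at proestrus, the phase of the cycle before ovulation, was sequenced in 4 libraries. The libraries titled SMAD7 Cre+/- come from animals with a conditional knockout and are called "labelled Cre", with n = 2. Those titled SMAD7fl/fl, whose treatment field reads blank, are called "labelled floxed", with n = 2. Per the labels, loxP sites were placed in Smad7 by Cas9, and these sites are shared by both groups. No source used here gives the Cre driver, the cells in which it acts or the age of the animals. Whether each library is a separate animal is not stated, so p-values measure only the spread between libraries, which could be technical.

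The targeted gene, Smad7, an inhibitor of TGF-beta receptor signalling, goes against the labels. It was measured at 228 and 154 CPM (read counts per library size, TMM-scaled) in Cre-labelled libraries, against 34.3 and 36.8 CPM in floxed-labelled libraries. The edgeR log2 fold change was 2.42 ± 0.28 (SE; adjusted p = 0.0982). Directions below are therefore those of the labels, not of a loss of Smad7. Counts are per gene, so whether they come from exons outside the deleted stretch, or whether the labels of the groups are exchanged, was not tested. Total counts were 19830568 and 17444368 in Cre-labelled libraries, against 22950532 and 18193504 in floxed-labelled libraries. A floor of 3 counts stood at 0.127 to 0.173 CPM, and all 10 genes were above it in all 4 libraries. The biological coefficient of variation was 0.163 for the pair labelled Cre and 0.403 for the pair labelled floxed. Markers of endometrial stroma (Pdgfra, Hoxa11, Col1a1, Vim) and epithelium (Epcam, Krt8, Krt18, Cdh1) were present in every library. The labels name endometrium and the design text uterine tissue. Smooth muscle markers (Acta2, Myh11, Des, Cnn1) summed to 7678 and 6727 CPM in Cre-labelled libraries, against 4441 and 3708 CPM in floxed-labelled libraries.

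Macrophages are phagocytes that depend on the CSF1 receptor for survival. They take up dying cells, antibody-coated particles and haemoglobin, and they sense bacterial products. In the uterus they lie mainly in the stroma and the muscle layer, and their number and state change over the reproductive cycle. Tissue macrophages that are settled around vessels and in connective tissue are known for high levels of the scavenger receptors MRC1 and CD163, and in mice many of them also carry LYVE1 and FOLR2. FCGR1 is carried by most mature tissue macrophages, and interferon-gamma is known to raise it.

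Promoter sequence is shown for 4 of the genes, because these genes lay apart in opposite directions: Mrc1 and Cd163 were higher in both libraries labelled Cre, Fcgr1 and Aif1 lower. Each run is the 250 bases upstream of the RefSeq start on GRCm38.p6, written 5′ to 3′ on the strand of the gene. Capitals mark matches to 4 short motifs searched on both strands: GAGGAA, the core bound by the macrophage factor PU.1, TTCNNNGAA, the interferon-gamma activated site, GAAANNGAA, a core for interferon regulatory factors, and AGAACA, a glucocorticoid receptor half-site. The window of Mrc1 is chr2:14229164-14229413 on the plus strand and that of Cd163 is chr6:124304401-124304650 on the plus strand. The window of Fcgr1 is chr3:96293970-96294219 on the minus strand and that of Aif1 is chr17:35176053-35176302 on the minus strand.
Mrc1: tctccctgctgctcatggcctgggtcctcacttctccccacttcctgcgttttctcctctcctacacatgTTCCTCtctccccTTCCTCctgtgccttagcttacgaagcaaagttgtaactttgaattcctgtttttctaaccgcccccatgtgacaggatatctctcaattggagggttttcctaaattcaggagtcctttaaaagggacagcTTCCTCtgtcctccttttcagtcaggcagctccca
Cd163: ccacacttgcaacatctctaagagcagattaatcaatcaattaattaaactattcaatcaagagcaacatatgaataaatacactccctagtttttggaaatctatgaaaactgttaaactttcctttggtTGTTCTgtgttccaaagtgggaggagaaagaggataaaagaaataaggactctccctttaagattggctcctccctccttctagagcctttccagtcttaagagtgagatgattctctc
Fcgr1: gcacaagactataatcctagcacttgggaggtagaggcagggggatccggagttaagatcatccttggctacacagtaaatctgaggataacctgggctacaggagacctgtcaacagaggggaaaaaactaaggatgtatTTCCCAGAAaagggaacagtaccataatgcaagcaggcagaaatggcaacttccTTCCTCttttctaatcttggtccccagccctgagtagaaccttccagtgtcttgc
Aif1: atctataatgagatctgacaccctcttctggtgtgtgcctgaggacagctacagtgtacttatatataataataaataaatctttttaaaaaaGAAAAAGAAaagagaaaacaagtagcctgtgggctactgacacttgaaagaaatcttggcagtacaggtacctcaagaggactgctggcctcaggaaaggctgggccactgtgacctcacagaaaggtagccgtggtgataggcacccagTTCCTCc

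The Mrc1 window held the PU.1 core 3 times, 180, 167 and 35 bases upstream of the start. The Cd163 window held a glucocorticoid half-site 119 bases upstream and no PU.1 core. The Fcgr1 window held the interferon-gamma activated site at 109 bases and a PU.1 core at 55 bases upstream. The Aif1 window held an interferon regulatory factor core at 157 bases and a PU.1 core at 7 bases upstream. No matches overlapped in these 4 windows. RefSeq promoter sequence was at hand for 7 of the 10 genes, which leaves out Adgre1, Csf1r and Cd14. The PU.1 core was found in 5 of the 7 (Aif1, Cd68, Fcgr1, Mrc1, Trem2) and in 23.3% of 32851 promoter windows of the same length. The interferon-gamma site was found in Fcgr1 alone among the 7 and in 7.02% of windows. The interferon regulatory factor core was found in Aif1 and Folr2 and in 7.13% of windows, and the glucocorticoid half-site in Cd163 and Folr2 and in 16.1% of windows. Short motifs such as these are common, and a match or its lack in this window says nothing of binding.

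The 10 genes did not move together. Cd163 and Mrc1 were higher in both libraries labelled Cre than in both labelled floxed, and Adgre1, Cd68, Aif1, Trem2 and Fcgr1 were lower. Csf1r, Cd14 and Folr2 overlapped between the groups. The edgeR quasi-likelihood test called none of the 9 genes tested at an adjusted p of 0.05. Over all genes it called 0.0% of 13513, and the lowest adjusted p was 0.0838. At an unadjusted p of 0.05, 3 of the 9 were lower (Aif1, Fcgr1, Cd68), beside 6.58% of all genes tested, and 2 were higher (Cd163, Mrc1), beside 7.3%. Groups that do not overlap were common: both libraries labelled Cre were below both labelled floxed for 5 of the 10 genes and for 23.6% of all genes tested, and above both for 2 of the 10 and for 24.7%. With DESeq2, Aif1 and Fcgr1 passed an adjusted p of 0.05 as lower, beside 3.0% of all genes, and none of the 9 as higher, beside 3.24%. The median log2 fold change of the 9 was -0.93, against -0.033 over all genes tested, and it was -0.28 without floxed replicate 1. In bulk RNA, fewer macrophages and less RNA per macrophage cannot be told apart.

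**Figure D1:**
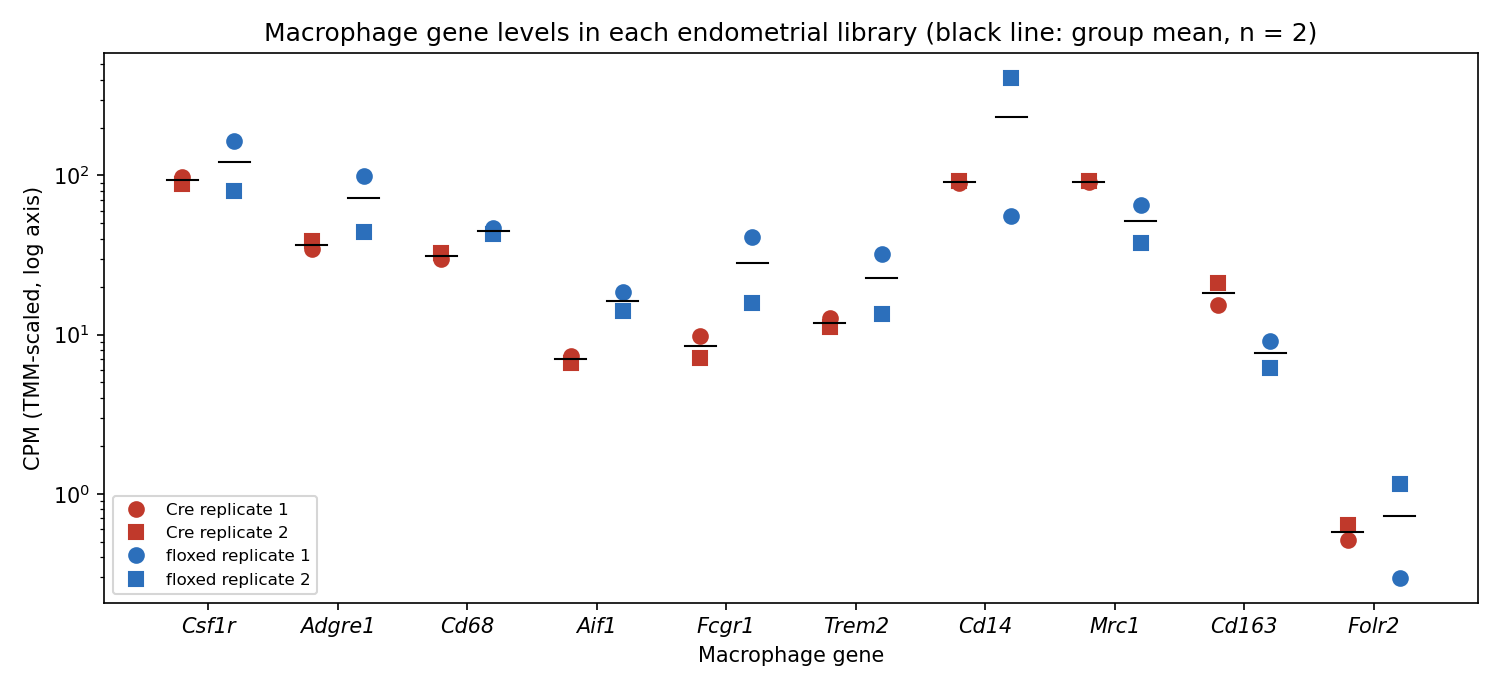
Level of each of the 10 genes in each library, in CPM on a log axis; red points are the libraries labelled Cre, blue points those labelled floxed, circles replicate 1, squares replicate 2, and black lines group means (n = 2). The red points of Cd163 and Mrc1 lie above both blue points, and the blue points of Cd14 lie 7.37-fold apart.

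The pair labelled Cre was close and the pair labelled floxed was not. Over the 9 genes tested, the libraries labelled Cre differed from each other by at most 1.37-fold. The libraries labelled floxed differed by 1.09-fold for Cd68 to 7.37-fold for Cd14. Floxed replicate 1 was above floxed replicate 2 for 8 of the 10 genes and was the highest of the 4 libraries for 6 of them. Ptprc, the gene of the CD45 protein on all leukocytes, had the same split: it was at 43.0 and 51.6 CPM in Cre-labelled libraries, against 118 and 54.9 CPM in floxed replicates 1 and 2. The part of leukocyte number in the differences below was not tested.

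Csf1r encodes the receptor for CSF1 and IL34, on which macrophages depend. It was at 98.0 and 88.8 CPM in Cre-labelled libraries, against 165 and 79.4 CPM in floxed-labelled libraries. The level of floxed replicate 2 was below both libraries labelled Cre and that of replicate 1 above them, so the groups overlapped. In edgeR the log2 fold change was -0.39 ± 0.38 (SE; adjusted p = 0.675). Without floxed replicate 1 it turned to 0.23, and without floxed replicate 2 it was -0.83. Csf1r (ENSMUSG00000024621) spans positions 61100598 to 61132149 of chromosome 18 (GRCm38, plus strand). Exons of Hmgxb3 on the other strand cover 15.1% of its exon bases, and no source used here says whether counting used strand.

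Adgre1 encodes an adhesion receptor that is the classical surface marker of mouse macrophages. It was at 34.5 and 38.5 CPM in Cre-labelled libraries, against 99.5 and 44.4 CPM in floxed-labelled libraries. Both libraries labelled Cre lay below both labelled floxed, but floxed replicate 2 was nearer to them than to floxed replicate 1, from which it was 2.24-fold apart. Its edgeR estimate was a log2 fold change of -0.98 ± 0.41 (adjusted p = 0.38). It was -0.28 without floxed replicate 1 and -1.45 without floxed replicate 2. Adgre1 (ENSMUSG00000004730) spans positions 57358691 to 57483527 of chromosome 17 (plus strand).

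Cd68 encodes a glycoprotein of the lysosomal membrane in phagocytes. Its floxed-labelled pair was the closest of the 10. It was at 29.9 and 32.7 CPM in Cre-labelled libraries, against 46.8 and 43.1 CPM in floxed-labelled libraries. The groups lay apart by more than either pair. The group means were 31.3 ± 1.98 and 45.0 ± 2.63 CPM (SD, n = 2 each) in Cre-labelled libraries and floxed. The log2 fold change of -0.52 ± 0.20 had an unadjusted p of 0.0456 and an adjusted p of 0.347 in edgeR, and it ran from -0.59 to -0.46 over 12 alternative settings. Cd68 (ENSMUSG00000018774) spans positions 69664213 to 69666153 of chromosome 11 (minus strand).

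Aif1 encodes a calcium-binding, actin-bundling protein of macrophages. It was at 7.38 and 6.62 CPM in Cre-labelled libraries, against 18.5 and 14.1 CPM in floxed-labelled libraries. These levels rest on 145 and 115 counts in Cre-labelled libraries, against 436 and 246 in floxed-labelled libraries, and the groups were well separated. A log2 fold change of -1.22 ± 0.31 was estimated (edgeR unadjusted p = 0.0107, adjusted p = 0.22), a 2.33-fold lower level. It kept its size over 12 alternative settings, from -1.41 to -1.01. Among those with 2 libraries in each group, it passed only with no filter on low genes and with DESeq2 (adjusted p = 0.0369). Aif1 (ENSMUSG00000024397) spans positions 35170991 to 35176068 of chromosome 17 (minus strand).

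Fcgr1 encodes the high-affinity receptor for IgG, a gene that interferon-gamma is known to induce. It was at 9.77 and 7.14 CPM in Cre-labelled libraries, against 40.8 and 15.8 CPM in floxed-labelled libraries. Both libraries labelled floxed were above both labelled Cre, and they were 2.59-fold apart from each other. Its log2 fold change of -1.74 ± 0.52 was the most negative of the 9 tested (edgeR unadjusted p = 0.0188, adjusted p = 0.265). It was -0.90 without floxed replicate 1 and -2.28 without floxed replicate 2. DESeq2 gave an adjusted p of 0.0314. Among the other settings with 2 libraries in each group, the call passed only with no filter on low genes. Fcgr1 (ENSMUSG00000015947) spans positions 96282909 to 96293969 of chromosome 3 (minus strand).

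Trem2 encodes a lipid-sensing receptor of macrophages that signals through the adapter TYROBP. It was at 12.8 and 11.1 CPM in Cre-labelled libraries, against 32 and 13.4 CPM in floxed-labelled libraries. Floxed replicate 2 lay just above the pair labelled Cre, and floxed replicate 1 stood alone. For Trem2 the log2 fold change was -0.93 ± 0.47 (edgeR adjusted p = 0.444), and -0.16 without floxed replicate 1. Without floxed replicate 2 it was -1.43. Trem2 (ENSMUSG00000023992) spans positions 48346401 to 48354147 of chromosome 17 (plus strand).

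Cd14 encodes the co-receptor that hands bacterial lipopolysaccharide to TLR4 and is also made by cells other than macrophages. It was at 89.2 and 91.9 CPM in Cre-labelled libraries, against 55.7 and 410 CPM in floxed-labelled libraries. The pair labelled Cre lay between the libraries labelled floxed. Floxed replicate 2 held 7160 counts, and it was the other library, floxed replicate 1, that was highest for most of the 10 genes. The log2 fold change of -1.36 ± 0.87 (edgeR adjusted p = 0.531) depended on which library labelled floxed was used. Without floxed replicate 1 it was -2.18, and without floxed replicate 2 it turned to 0.69. Cxcl1 and Nfkbia had the same split. Cxcl1, a neutrophil-attracting chemokine, was at 0.509 and 0.749 CPM in Cre-labelled libraries, against 0.34 and 25.7 CPM in floxed replicates 1 and 2. Nfkbia, an inhibitor and target of NF-kappaB, was at 140 and 138 CPM in Cre-labelled libraries, against 83.4 and 383 CPM in floxed-labelled libraries. Their part in the Cd14 level was not tested. Cd14 (ENSMUSG00000051439) spans positions 36725067 to 36726798 of chromosome 18 (minus strand).

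Mrc1 encodes the macrophage mannose receptor, which clears glycoproteins and collagen fragments. It was at 90.5 and 92.1 CPM in Cre-labelled libraries, against 65.7 and 37.8 CPM in floxed-labelled libraries. The libraries labelled Cre were nearly equal and above both labelled floxed. For Mrc1 the log2 fold change was 0.82 ± 0.31 (edgeR unadjusted p = 0.045, adjusted p = 0.345), a 1.76-fold higher level. Without floxed replicate 1 it was 1.27, and without floxed replicate 2 it was 0.47. Lymphatic endothelium also expresses Mrc1. Its marker Prox1 was at 9.31 and 12.9 CPM in Cre-labelled libraries, against 9.43 and 4.01 CPM in floxed-labelled libraries. Its other marker Flt4 was at 48.4 and 49.0 CPM in Cre-labelled libraries, against 40.3 and 22.2 CPM in floxed-labelled libraries, and the part of this in the Mrc1 level was not tested. Mrc1 (ENSMUSG00000026712) spans positions 14229392 to 14332057 of chromosome 2 (plus strand).

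Cd163 encodes the scavenger receptor for complexes of haemoglobin and haptoglobin, a gene that glucocorticoids are known to induce in macrophages. It was at 15.4 and 21.1 CPM in Cre-labelled libraries, against 9.14 and 6.13 CPM in floxed-labelled libraries. Those levels come from 302 and 366 counts in Cre-labelled libraries, against 215 and 107 in floxed-labelled libraries. The direction was opposite to that of Adgre1, Cd68, Aif1, Trem2 and Fcgr1, and the groups did not overlap. The log2 fold change of 1.25 ± 0.36 was the highest of the 9 (edgeR unadjusted p = 0.0163, adjusted p = 0.252), a 2.38-fold higher level. Over 11 alternative settings it ran from 0.85 to 1.57. Among those with 2 libraries in each group, it passed only with no filter on low genes. DESeq2 gave an adjusted p of 0.0597. Cd163 (ENSMUSG00000008845) spans positions 124304656 to 124330527 of chromosome 6 (plus strand).

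Folr2 encodes folate receptor beta and was near the limit of detection. It held 10 and 11 counts in Cre-labelled libraries, against 7 and 20 in floxed-labelled libraries. That is 0.509 and 0.634 CPM in Cre-labelled libraries, against 0.297 and 1.15 CPM in floxed-labelled libraries, and the groups overlapped. Its mean FPKM was under 1, so it was left out of the test. The summed counts of 21 and 27 gave a ratio of 0.861. The 95% exact binomial interval of 0.463 to 1.58 covers counting error only, so a difference was not detectable at these counts. The antisense gene Gm10602 overlaps 63.1% of the Folr2 exon bases, and no source used here says whether counting used strand. Folr2 (ENSMUSG00000032725) spans positions 101839988 to 101857194 of chromosome 7 (minus strand).

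**Figure D2:**
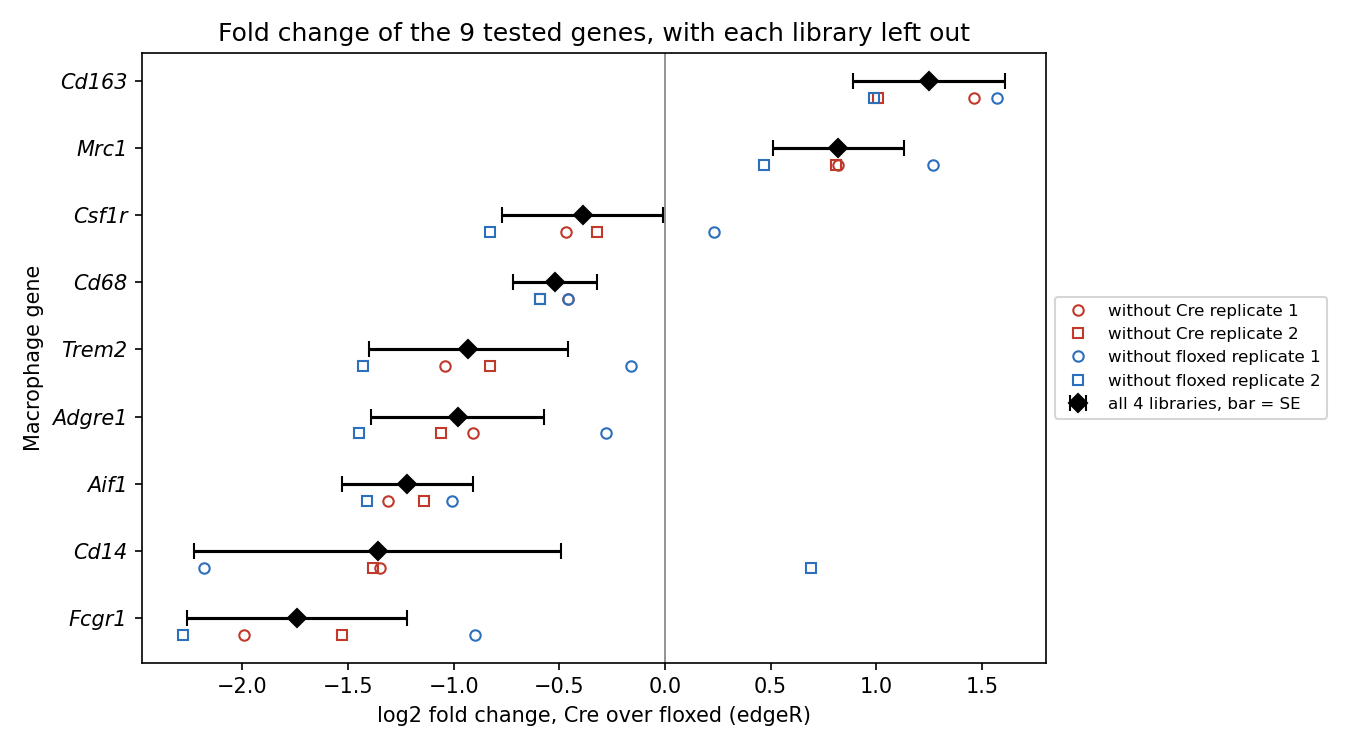
The log2 fold change (libraries labelled Cre over those labelled floxed, edgeR) of the 9 tested genes: black diamonds use all 4 libraries with the SE as bars, open symbols leave out the library named in the legend. Leaving out floxed replicate 1 moves Csf1r to 0.23, leaving out floxed replicate 2 moves Cd14 to 0.69, and the 7 other genes keep their side under all 4 omissions.

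Levels of different genes were set side by side as FPKM, the deposited value per kilobase of exon and library total. In the libraries labelled Cre the highest of the 10 was Cd14, at 51.1 and 52.8 FPKM, then Cd68 at 23.6 and 25.9, Csf1r at 16.8 and 15.3 and Mrc1 at 14.1 and 14.4 FPKM. Adgre1, Aif1, Fcgr1, Cd163, Trem2 and Folr2 followed, and among neighbours in this order only Fcgr1 and Cd163 overlapped between the libraries labelled Cre. In the libraries labelled floxed, Cd68 was at 38.2 and 32.9 FPKM, Cd14 at 33.0 and 227, Adgre1 at 31.5 and 13.2 and Csf1r at 29.3 and 13.2 FPKM. Most neighbours overlapped in the libraries labelled floxed: Cd14 with Cd68, Adgre1 with Csf1r, and Fcgr1 with Aif1 and Mrc1. Mrc1 was the fourth highest of the 10 in each library labelled Cre and the seventh in each labelled floxed. Cd163 was at 2.79 and 3.84 FPKM in Cre-labelled libraries, against 1.72 and 1.08 FPKM in floxed-labelled libraries, where it was above Folr2 alone. FPKM divides by all annotated exons, 4946 bases for Trem2 and 1257 for Cd68, so the order of genes depends on those lengths. Summed over the 10 genes, the levels were 130 and 134 FPKM in Cre-labelled libraries, against 180 and 311 FPKM in floxed-labelled libraries. Without Cd14 they were 79.3 and 80.9 FPKM in Cre-labelled libraries, against 147 and 83.9 FPKM in floxed-labelled libraries. Cd14 thus made up 73.0% of the sum in floxed replicate 2.

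Set against the other macrophage genes of the same library, Cd163 and Mrc1 stood higher in Cre-labelled libraries. The FPKM of Cd163 was 2.19% and 2.96% of the summed FPKM of the other 9 genes in Cre-labelled libraries, against 0.964% and 0.347% in floxed-labelled libraries. The ratio of the group means was 3.92, and no test was made of it. On the log2 scale this ratio was 1.97, and it was 2.89 without floxed replicate 1 and 1.42 without floxed replicate 2. Per Csf1r alone, Cd163 was at 16.6% and 25.1% in Cre-labelled libraries, against 5.86% and 8.17% in floxed-labelled libraries. Mrc1 was at 83.7% and 93.9% of Csf1r in Cre-labelled libraries, against 36.1% and 43.1% in floxed-labelled libraries. For both genes the groups did not overlap under any of 4 denominators: the other 9 genes, Csf1r, Adgre1 and Ptprc. Fcgr1 lay the other way, at 22.2% and 17.9% of Csf1r in Cre-labelled libraries, against 55.2% and 44.3% in floxed-labelled libraries. Its groups overlapped only with the other 9 genes as denominator, a sum led by Cd14 in floxed replicate 2. Aif1 was at 28.4% and 28.1% of Csf1r in Cre-labelled libraries, against 42.3% and 66.9% in floxed-labelled libraries, and its groups overlapped under the 3 other denominators. The ratios of Mrc1, Fcgr1 and Aif1 were chosen after their values were seen. A ratio within a library shows unequal change between genes, and not which of them changed.

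**Figure D3:**
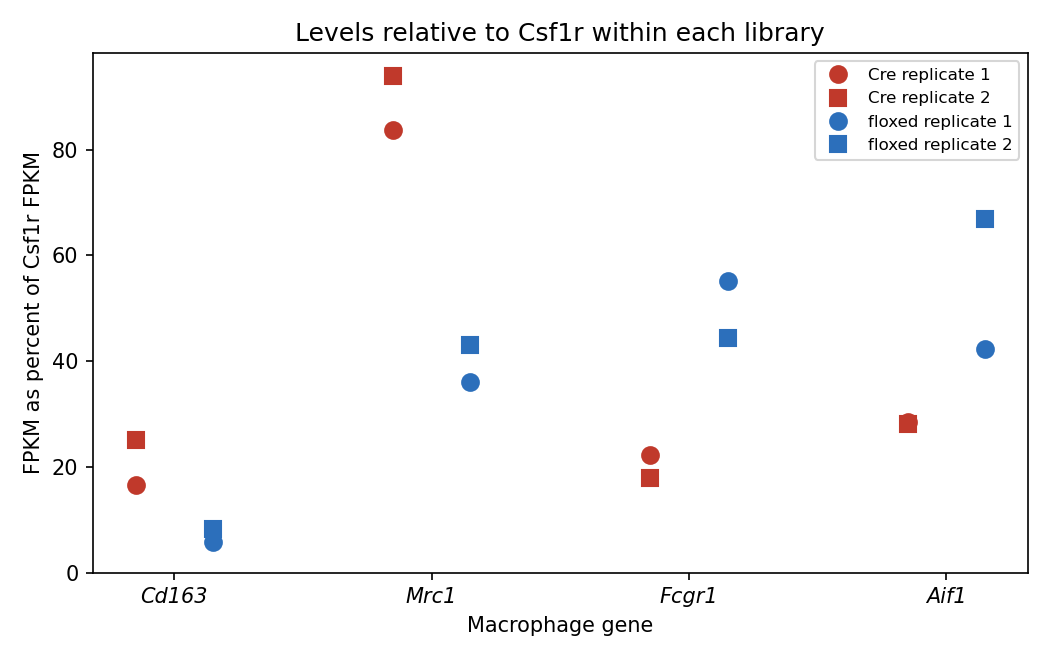
FPKM of Cd163, Mrc1, Fcgr1 and Aif1 as a percent of Csf1r FPKM in the same library, from 0; red is labelled Cre, blue labelled floxed, circles replicate 1 and squares replicate 2. Cd163 and Mrc1 are higher in Cre-labelled libraries and Fcgr1 and Aif1 lower, with no overlap within any of the 4 genes.

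The ligands of the CSF1 receptor were read next. Csf1 was at 59.0 and 45.2 CPM in Cre-labelled libraries, against 71.8 and 43.5 CPM in floxed-labelled libraries (log2 fold change -0.15 ± 0.31, edgeR adjusted p = 0.853). Il34 was at 2.65 and 2.59 CPM in Cre-labelled libraries, against 2.63 and 3.1 CPM in floxed-labelled libraries (log2 fold change -0.13 ± 0.42). The groups overlapped for both. Of 10 macrophage transcription factors, 4 had both libraries labelled Cre below both labelled floxed and 1 had them above, beside 23.6% and 24.7% of all genes tested, and 2 were lower at an unadjusted p of 0.05, beside 6.58%. Spi1, which encodes PU.1, was at 13.9 and 11.9 CPM in Cre-labelled libraries, against 39.1 and 20.3 CPM in floxed-labelled libraries (log2 fold change -1.20 ± 0.38, edgeR adjusted p = 0.282). Irf8, a factor of monocytes and interferon responses, was at 39.4 and 28.2 CPM in Cre-labelled libraries, against 153 and 41.7 CPM in floxed-labelled libraries. Id3, an inhibitor of helix-loop-helix factors, was at 54.2 and 53.1 CPM in Cre-labelled libraries, against 187 and 104 CPM in floxed-labelled libraries (adjusted p = 0.191). Cebpb, a factor of inflammatory and alternative activation, was at 94.0 and 65.4 CPM in Cre-labelled libraries, against 40.7 and 71.9 CPM in floxed-labelled libraries, and another gene overlaps 20.7% of its exon bases. The median log2 fold change of the 10 factors was -0.31.

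Of 3 genes through which TREM2 and Fc receptors signal, the adapter genes Fcer1g and Tyrobp were lower in both Cre-labelled libraries, beside 23.6% of all genes tested. These 2 were also lower at an unadjusted p of 0.05 in edgeR, beside 6.58% of all genes tested. Fcer1g, the common Fc receptor gamma chain that FCGR1 needs at the surface, was at 20.9 and 18.8 CPM in Cre-labelled libraries, against 58.5 and 47.8 CPM in floxed-labelled libraries. Its log2 fold change was -1.42 ± 0.22 (edgeR unadjusted p = 0.0012, adjusted p = 0.112), from pairs that were each close. Tyrobp, the adapter of TREM2, was at 23.3 and 20.9 CPM in Cre-labelled libraries, against 54.6 and 40.2 CPM in floxed-labelled libraries (log2 fold change -1.10 ± 0.25, adjusted p = 0.178). Syk, the kinase that both adapters recruit, overlapped, at 24.6 and 21.4 CPM in Cre-labelled libraries, against 46.4 and 20.3 CPM in floxed-labelled libraries. These adapters are also used by neutrophils and natural killer cells. Among the other Fc gamma receptors, the activating Fcgr4 was at 2.24 and 2.94 CPM in Cre-labelled libraries, against 33.4 and 7.8 CPM in floxed-labelled libraries (log2 fold change -3.00 ± 0.76, edgeR adjusted p = 0.219). The activating Fcgr3 was at 23.5 and 27.0 CPM in Cre-labelled libraries, against 64.5 and 33.5 CPM in floxed-labelled libraries. The inhibitory Fcgr2b overlapped, at 37.7 and 34.3 CPM in Cre-labelled libraries, against 38.9 and 28.8 CPM in floxed-labelled libraries (log2 fold change 0.09 ± 0.24).

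The partners of CD14 were less far apart between the libraries labelled floxed than Cd14, although Lbp, Tlr4 and Ly96 were also higher in floxed replicate 2. Lbp, the serum protein that binds lipopolysaccharide for CD14, was at 88.1 and 124 CPM in Cre-labelled libraries, against 252 and 290 CPM in floxed-labelled libraries (log2 fold change -1.36 ± 0.27, edgeR unadjusted p = 0.00383, adjusted p = 0.16). Its groups lay apart by more than either pair. Tlr4, the signalling receptor, overlapped at 41.2 and 58.2 CPM in Cre-labelled libraries, against 46.4 and 65.7 CPM in floxed-labelled libraries. Ly96, the part of that receptor that holds the lipid, was at 5.9 and 5.82 CPM in Cre-labelled libraries, against 6.54 and 11.3 CPM in floxed-labelled libraries. Myd88, the adapter of TLR4, was at 40.9 and 41.5 CPM in Cre-labelled libraries, against 61.5 and 56.6 CPM in floxed-labelled libraries (edgeR unadjusted p = 0.0389, adjusted p = 0.328), and another gene overlaps 11.3% of its exon bases.

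Of the genes that work with CD163 in the handling of haemoglobin and haem, 2 of the 4 tested had a positive log2 fold change and 2 a negative one. None of the 4 was called at an unadjusted p of 0.05, beside 7.3% of all genes tested as higher and 6.58% as lower. At these shares, 4 genes are too few to tell whether they followed Cd163. Hp, which encodes haptoglobin, was at 23.6 and 47.7 CPM in Cre-labelled libraries, against 22.2 and 25.9 CPM in floxed-labelled libraries, and overlapped. Hmox1, the enzyme that breaks down haem, was at 17.2 and 11.5 CPM in Cre-labelled libraries, against 21.7 and 13.8 CPM in floxed-labelled libraries. Slc40a1, the iron exporter, was at 280 and 290 CPM in Cre-labelled libraries, against 99.1 and 884 CPM in floxed-labelled libraries, with the highest value in floxed replicate 2 as for Cd14. Lrp1, the receptor for haem bound to haemopexin, was at 899 and 713 CPM in Cre-labelled libraries, against 673 and 208 CPM in floxed-labelled libraries (log2 fold change 0.87 ± 0.59, edgeR adjusted p = 0.55). It was higher in both Cre-labelled libraries, as 24.7% of all genes tested were. Hpx, haemopexin itself, was at 0.204 and 0.288 CPM in Cre-labelled libraries, against 0.212 and 0.172 CPM in floxed-labelled libraries, and was too low to test. Red blood cell markers (Hba-a1, Hbb-bs, Alas2) summed to 65.6 and 76.4 CPM in Cre-labelled libraries, against 32.7 and 48.4 CPM in floxed-labelled libraries. Their part in the Cd163 level was not tested.

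Most other genes of settled tissue macrophages lay on the side of Cd163 and Mrc1. Of 15 such genes 11 were tested. All 11 had a positive log2 fold change, from 0.13 to 1.78 with a median of 0.72, and 9 had both libraries labelled Cre above both labelled floxed (24.7% of all genes tested did). At an unadjusted p of 0.05, 4 were higher (7.3% of all genes) and 0 lower, and none passed an adjusted p of 0.05 in edgeR. The median stayed between 0.61 and 0.81 with each library left out. The list was chosen with earlier results of these data known, so it is not independent support for a shared direction. Cd209f, a C-type lectin, was at 10.5 and 8.41 CPM in Cre-labelled libraries, against 2.76 and 2.75 CPM in floxed-labelled libraries (log2 fold change 1.78 ± 0.37, edgeR unadjusted p = 0.00433, adjusted p = 0.166). F13a1, a subunit of coagulation factor XIII, was at 53.2 and 61.7 CPM in Cre-labelled libraries, against 20.8 and 32.8 CPM in floxed-labelled libraries (log2 fold change 1.10 ± 0.29, adjusted p = 0.223). Neither gene overlapped. The floxed-labelled pair was nearly equal for Cd209f and uneven for F13a1, whose log2 fold change was 0.81 without floxed replicate 1 and 1.46 without floxed replicate 2. Lyve1, a hyaluronan receptor that lymphatic endothelium shares, was at 48.8 and 60.8 CPM in Cre-labelled libraries, against 31.9 and 34.6 CPM in floxed-labelled libraries. Gas6, a ligand for receptors that engulf dying cells, was at 651 and 597 CPM in Cre-labelled libraries, against 412 and 268 CPM in floxed-labelled libraries. Cbr2, a carbonyl reductase, was at 1240 and 1070 CPM in Cre-labelled libraries, against 37.6 and 782 CPM in floxed-labelled libraries (log2 fold change 1.50 ± 1.24). Gas6 and Cbr2 are also made by cells other than macrophages. Among the 4 untested genes, Cd209g was higher in both Cre-labelled libraries, as 24.7% of all genes tested were. It was at 3.56 and 3.05 CPM in Cre-labelled libraries, against 1.06 and 1.55 CPM in floxed-labelled libraries. Vsig4 held 11 and 27 counts in Cre-labelled libraries, against 0 and 1 in floxed-labelled libraries. Marco held 4 and 6 counts, against 1 and 1. The floxed-labelled levels of Vsig4 and Marco were under the floor of 3 counts. Timd4, a receptor for dying cells, lay the other way in summed counts but overlapped, at 0.204 and 0.979 CPM in Cre-labelled libraries, against 2.89 and 0.688 CPM in floxed-labelled libraries.

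Genes shared by most macrophages, also listed with earlier results of these data known, lay on the side of Adgre1, Aif1 and Fcgr1. Of 16 such genes 15 were tested, 9 had both libraries labelled Cre below both labelled floxed (23.6% of all genes tested did) and 0 above. At an unadjusted p of 0.05, 7 were lower (6.58% of all genes). None passed an adjusted p of 0.05, and the median log2 fold change was -0.99, or -0.25 without floxed replicate 1. The complement genes C1qa, C1qb and C1qc, made in tissues chiefly by macrophages, had log2 fold changes of -1.08, -1.06 and -0.86, and C1qb was at 80.3 and 70.3 CPM in Cre-labelled libraries, against 193 and 122 CPM in floxed-labelled libraries. Ctss, a lysosomal protease, was at 72.7 and 69.9 CPM in Cre-labelled libraries, against 242 and 116 CPM in floxed-labelled libraries (log2 fold change -1.33 ± 0.39, edgeR adjusted p = 0.262). Ms4a7, a membrane protein of tissue macrophages, was at 10 and 9.16 CPM in Cre-labelled libraries, against 40.7 and 14.2 CPM in floxed-labelled libraries (adjusted p = 0.314). Cx3cr1, the fractalkine receptor of monocytes and macrophages, was at 18.1 and 12.2 CPM in Cre-labelled libraries, against 43.2 and 25.3 CPM in floxed-labelled libraries (adjusted p = 0.282). Cybb, the catalytic subunit of the phagocyte oxidase, overlapped, at 30.5 and 36.2 CPM in Cre-labelled libraries, against 129 and 35.5 CPM in floxed-labelled libraries. Mertk, a receptor for dying cells, overlapped as well, with a log2 fold change of 0.24 ± 0.31.

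Of 13 genes that accompany TREM2 in lipid-laden macrophages, 6 had both libraries labelled Cre below both labelled floxed (23.6% of all genes tested did) and 0 above. At an unadjusted p of 0.05, 3 were lower (6.58% of all genes). Their median log2 fold change was -0.45, or -0.16 without floxed replicate 1. Spp1, which encodes osteopontin, was at 5.5 and 5.7 CPM in Cre-labelled libraries, against 58.7 and 32.2 CPM in floxed-labelled libraries (log2 fold change -3.02 ± 0.37, edgeR adjusted p = 0.0982). Another gene overlaps 18.8% of its exon bases, and epithelium is known to make it too. Gpnmb, a glycoprotein of lipid-laden macrophages, was at 14.7 and 18.2 CPM in Cre-labelled libraries, against 53.5 and 14.7 CPM in floxed-labelled libraries. It overlapped and had the high value in floxed replicate 1 that Trem2 had. Apoe, the lipid carrier that TREM2 binds, was at 676 and 406 CPM in Cre-labelled libraries, against 1620 and 606 CPM in floxed-labelled libraries (log2 fold change -1.04 ± 0.57). Ctsd, a lysosomal protease, was at 252 and 246 CPM in Cre-labelled libraries, against 787 and 333 CPM in floxed-labelled libraries, and another gene overlaps 34.4% of its exon bases.

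**Figure D4:**
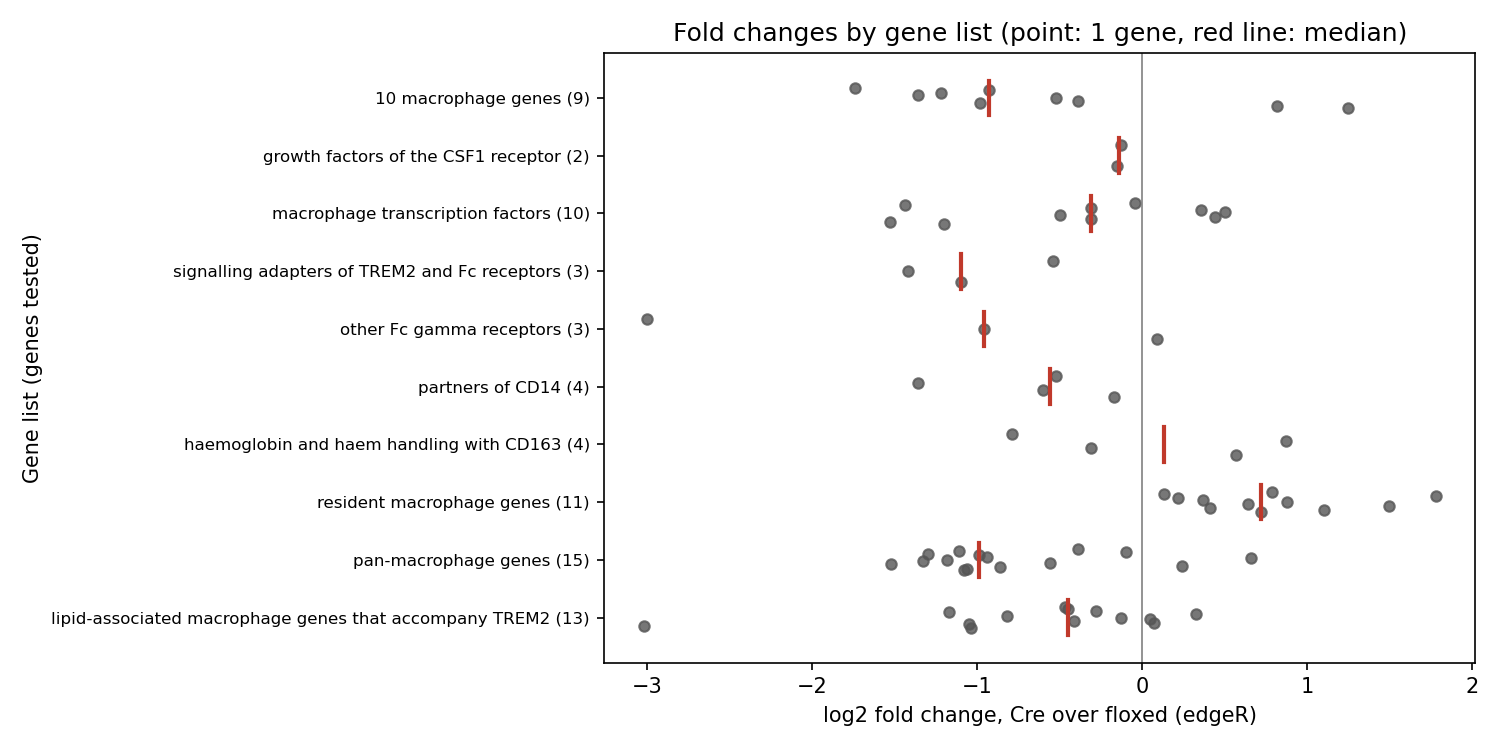
The log2 fold change (libraries labelled Cre over those labelled floxed, edgeR) of each tested gene in the 10 macrophage genes and 9 companion lists; grey points are genes and red lines medians, with the number tested in parentheses. All 11 resident macrophage genes lie above 0 with a median of 0.72, and the pan-macrophage genes have a median of -0.99. The lists were chosen with earlier results of these data known.

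Of 13 inflammatory products of macrophages 10 were tested. The filter on low values was passed through the libraries labelled floxed alone by 7 of them (Il1b, Tnf, Acod1, Cxcl1, Cxcl2, Il12b and Ptgs2). These had to differ for that reason, so their fold changes are not read as a result. Levels are given for Il1b, Acod1, Cxcl2 and Il12b here and for Cxcl1 beside Cd14. Slc7a11, the cystine transporter, was at 144 and 200 CPM in Cre-labelled libraries, against 88.3 and 155 CPM in floxed-labelled libraries, and overlapped. Ccl3 and Ccl4, genes of chemokines, were lower in both Cre-labelled libraries, as 23.6% of all genes tested were. Ccl3 was at 1.12 and 0.691 CPM in Cre-labelled libraries, against 2.38 and 6.99 CPM in floxed-labelled libraries (log2 fold change -2.35 ± 0.71, edgeR adjusted p = 0.268). Ccl4 was at 1.68 and 0.518 CPM in Cre-labelled libraries, against 3.02 and 2.98 CPM in floxed-labelled libraries (log2 fold change -1.43 ± 0.66, adjusted p = 0.416). Il1b, the gene of interleukin-1 beta, was at 0.763 and 0.518 CPM in Cre-labelled libraries, against 11.8 and 24.0 CPM in floxed-labelled libraries. Acod1, which makes itaconate in activated macrophages and neutrophils, was at 0.305 and 0.0576 CPM in Cre-labelled libraries, against 82.1 and 35.9 CPM in floxed-labelled libraries. Neither gene overlapped between the groups, and this is not read as a result because of that filter. Both libraries labelled Cre were below both labelled floxed for 23.6% of all genes tested. Cxcl2, a neutrophil-attracting chemokine, was at 0.204 and 0.0576 CPM in Cre-labelled libraries, against 0.51 and 29.6 CPM in floxed-labelled libraries, so only floxed replicate 2 was high. Il12b, a subunit of interleukin-12, was at 0.356 CPM and 0 in Cre-labelled libraries, against 16.4 and 0.803 CPM in floxed-labelled libraries. Genes of alternative activation were split. Arg1, arginase, was at 73.1 and 46.8 CPM in Cre-labelled libraries, against 4.72 and 19.8 CPM in floxed-labelled libraries (log2 fold change 2.30 ± 0.70, adjusted p = 0.27). The chemokine gene Ccl22 was at 0.102 and 0.691 CPM in Cre-labelled libraries, against 38.8 and 7.74 CPM in floxed-labelled libraries, and Ccl17 was detected with 1 count in Cre-labelled libraries, against 247 in floxed-labelled libraries. Ccl17 and Ccl22 also passed the filter on low values through the libraries labelled floxed alone. They had to differ for that reason, so only their levels are given. Both chemokines are also made by dendritic cells. Il4ra, the receptor chain for interleukin-4, was at 253 and 194 CPM in Cre-labelled libraries, against 87.5 and 157 CPM in floxed-labelled libraries (adjusted p = 0.371).

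Glucocorticoid-induced genes, 10 in all, were read beside Cd163. Both libraries labelled Cre were above both labelled floxed for 5 (24.7% of all genes tested) and below for 1 (23.6%). At an unadjusted p of 0.05, 4 were higher (7.3% of all genes), and the median log2 fold change was 0.55. The gene below was Klf9, a Krüppel-like factor, with a log2 fold change of -0.42 ± 0.21 (edgeR adjusted p = 0.445). It was at 128 and 139 CPM in Cre-labelled libraries, against 175 and 184 CPM in floxed-labelled libraries. Of the 10 genes, 8 had a positive log2 fold change. Besides Klf9, Nfkbia had a negative one (-0.75), and its groups overlapped. Per1, a clock gene, was at 90.4 and 79.0 CPM in Cre-labelled libraries, against 37.3 and 45.7 CPM in floxed-labelled libraries (log2 fold change 1.03 ± 0.22, edgeR adjusted p = 0.167). Errfi1, an inhibitor of the EGF receptor, was at 294 and 302 CPM in Cre-labelled libraries, against 66.8 and 91.7 CPM in floxed-labelled libraries (log2 fold change 1.91 ± 0.26, adjusted p = 0.103). The pairs of both genes were close and did not overlap. Zbtb16, a zinc finger factor, was at 24.6 and 23.7 CPM in Cre-labelled libraries, against 9.09 and 2.87 CPM in floxed-labelled libraries. Dusp1, a phosphatase of MAP kinases, was at 56.9 and 55.2 CPM in Cre-labelled libraries, against 32.3 and 31.7 CPM in floxed-labelled libraries (adjusted p = 0.192). Progesterone and growth factors are known to move some of these genes too.

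Markers of other leukocytes differed in direction. Neutrophil markers (S100a8, S100a9, Csf3r, Cxcr2, Retnlg, Mmp8) summed to 20.1 and 20.5 CPM in Cre-labelled libraries, against 139.9 and 118.3 CPM in floxed-labelled libraries. T and NK cell markers (Cd3e, Cd3d, Nkg7, Gzmb, Prf1, Ncr1) summed to 15.2 and 13.7 CPM in Cre-labelled libraries, against 61.3 and 65.5 CPM in floxed-labelled libraries. Both sums were higher in both libraries labelled floxed, and none of these markers was at 0 in any library. Single genes lay that way for 23.6% of all genes tested. S100a8, S100a9, Cxcr2, Cd3d and Prf1 passed the filter on low values through the libraries labelled floxed alone. Retnlg made up 15.3 and 14.2 CPM of the neutrophil sum in Cre-labelled libraries, against 89.0 and 40.1 CPM in floxed-labelled libraries. Mmp8 overlapped, at 0.102 and 1.67 CPM in Cre-labelled libraries, against 0.255 and 0.459 CPM in floxed-labelled libraries. Of the 10 genes, Csf1r, Cd68, Aif1, Fcgr1 and Cd14 are also expressed by monocytes, and Fcgr1 and Cd14 by activated neutrophils. Dendritic cell markers (Flt3, Zbtb46, Xcr1, Clec9a, Cd209a, Ccr7) summed to 33.1 and 33.7 CPM in Cre-labelled libraries, against 48.5 and 29.4 CPM in floxed-labelled libraries, and overlapped. Mast cell markers (Kit, Cpa3, Mcpt4, Cma1) summed to 51.3 and 74.8 CPM in Cre-labelled libraries, against 53.4 and 62.0 CPM in floxed-labelled libraries. Of the 4 mast cell markers, 3 were higher in both Cre-labelled libraries, beside 24.7% of all genes tested. The median log2 fold change over the 4 was 1.05. Kit overlapped, at 34.3 and 54.0 CPM in Cre-labelled libraries, against 45.7 and 52.0 CPM in floxed-labelled libraries. The part of other leukocytes in the levels of the 10 genes was not tested.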

How the data were processed

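Macrophage genes were read from gene tables of 4 libraries of mouse endometrium. TRIzol extraction and NEBNext Ultra libraries are named, per the labels' protocols. Per the submitters' processing notes, HISAT2, HTSeq 0.13.5 and GRCm38 were used; no source used here states the use of strand. The authors deposited a raw count and an FPKM value for each gene, per the file headers. The deposited FPKM follow from the count, the merged exon length and the library's total: implied lengths were equal within 1e-06 for 23463 of 23463 genes, and matched GENCODE M21 on GRCm38 within 0.1% for 26874 of 27291. Gene positions and exon overlaps come from GENCODE. Values per total count are relative to each library's own RNA.

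Counts were tested with edgeR 4.0.16 (R 4.3.3; quasi-likelihood, TMM, group only, 2 residual degrees of freedom) over the 13513 genes whose mean FPKM was 1 or more, adjusted by Benjamini-Hochberg over all of them. P-values are two-sided. SE was worked out from each log2 fold change and its F statistic. An exact two-sided permutation test of a single gene cannot go below 0.333 with 2 against 2 libraries. The procedure was tested on simulated data. Alternatives were the filter, the scaling, DESeq2 1.42.0, limma 3.58.1 on log2(FPKM + 1) and log2(FPKM + 0.1), the replicate number as a block, and each library left out. RefSeq promoter sequence was matched by symbol.

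The 10 genes and the companion lists were chosen with earlier results of these data known. Named were the 10 genes, Smad7, all partner genes and up to 4 genes of each other list with the largest fold change. C1qa, C1qb, C1qc, Mertk, Lyve1, Timd4, Cd209g, Vsig4, Marco, Slc7a11, Ccl3, Ccl4, Klf9, Cxcl1, Nfkbia, Ptprc, Prox1, Flt4, Retnlg, Mmp8 and Kit were named after their values were seen.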

Additional observations from a re-analysis of the deposited data

How the results depend on the processing

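The direction of the 9 tested macrophage genes was kept in 104 of 106 comparisons with an alternative setting, and 7 of the 9 genes never turned. Genes called at an adjusted p of 0.05 numbered 0 higher and 0 lower. They numbered 995 and 933 with no filter on low genes, 438 and 405 with DESeq2, and 1 higher with a mean FPKM of at least 5. With each library left out they ran from 0 to 2364 higher and from 0 to 1885 lower, with 0 without either library labelled Cre; without floxed replicate 1 or 2 the spread came from the pair labelled Cre alone. The lone library is assumed to vary like the other group. Of the 9 genes, 3 were lower and 2 higher at an unadjusted p. Lower genes numbered 5 with no filter and from 0 to 6 with each library left out, with 1 without Cre replicate 1, 0 without Cre replicate 2 and 6 without floxed replicate 2. Higher genes numbered 1 with total count scaling, with a mean FPKM of at least 5 and with limma at either pseudocount, and from 0 to 3 with each library left out, with 1 without Cre replicate 1 and 0 without Cre replicate 2. The median log2 fold change ran from -0.95 to -0.28, and was -0.73 without Cd14, a setting chosen after seeing the data. With the replicate block the median was -0.74, 2 of the genes were lower and 2 higher, and no call at an adjusted p changed; replicate numbers are shared only as numbers (correlation of deviations -0.0614). The log2 ratio of Cd163 to the other 9 genes was 1.97 and ran from 1.42 to 2.89.

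With each library left out, 2 of the 10 genes turned: Csf1r from -0.83 to 0.23 and Cd14 from -2.18 to 0.69. Of 51 other genes, 11 turned, each only where a library was left out. The ranges were -0.47 to 0.26 for Csf1, -1.02 to 0.18 for Syk, -0.12 to 0.32 for Fcgr2b, -0.45 to 0.09 for Tlr4, -0.03 to 0.98 for Hp and -0.64 to 0.05 for Hmox1. They were -1.63 to 1.52 for Slc40a1, -1.71 to 0.16 for Gpnmb, -0.07 to 0.62 for Mertk, -5.35 to 0.86 for Cxcl1 and -1.46 to 0.73 for Nfkbia. Cxcl1 passed the filter on low values through the libraries labelled floxed alone, so its range is not read as a result. The cause was not tested. Folr2 held 7 to 20 counts, and the part of depth or of the overlap with Gm10602 in this was not tested.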
